A study of Macaca mulatta with 12 samples.

Results

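Collagens, laminins and integrins build and read the extracellular matrix, and they were followed here through the cell classes of the rhesus macaque amygdala. The members are all rows of the deposited table whose symbol is COL with a digit after it or begins with LAMA, LAMB, LAMC, ITGA or ITGB, with ITGAM left out. The rule used names and no measured value, and it found 73 of 19708 rows. By role they were 7 basement membrane collagens, 9 fibrillar collagens, 17 other collagens, 12 laminin chains, 16 integrin alpha subunits and 7 integrin beta subunits. The remaining 5 rows were caught by their prefix and encode none of these proteins. A further 9 family rows, listed under Ensembl identifiers and named through a gene table, were kept apart from the 73.

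Basement membranes are thin sheets in which networks of collagen IV and laminin lie beside cells; in brain they wrap the vessels and line the pial surface, where astrocyte endfeet meet them. Laminins are trimers of an alpha, a beta and a gamma chain, collagen IV trimers are built from 3 chains of a family of 6, and fibrillar collagens form the cables of connective tissue. Integrins are receptors made of 1 alpha and 1 beta subunit that hold cells to these proteins and to each other.

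The samples were 12 records of 1 group, amygdala nuclei from frozen tissue of rhesus macaques (Macaca mulatta), with no treatment, genotype or age given in the labels. Their titles number them as 3 amygdala specimens with 4 records each, so the 12 are not independent samples. RNA of single nuclei was counted from its 3′ end in droplets, each molecule carrying a unique molecular identifier (UMI). The table pooled 26400 nuclei with 151526883 UMIs, and their barcodes carried 3 suffixes, called barcode sets here, of 9201, 8900 and 8299 nuclei. Nothing in the labels links a suffix to a sample. All nuclei were therefore treated as a single sample, no difference had a replicate error or a test, and agreement between barcode sets may be technical.

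Classes were rebuilt by clustering on 9818 genes, with the other 9890 genes, all members among them, kept out, so that no member shaped the classes. Class names rest on marker genes, so "mural cells" stands for mural-like nuclei, and likewise for every class; a difference from other accounts of these nuclei may come from these rebuilt names. After 1862 presumed doublets were left out, 23211 nuclei fell into 10 named classes and 1327 stayed unnamed. They comprised 10889 excitatory neurons, 4116 inhibitory neurons, 6033 astrocytes, 795 ependymal cells, 438 oligodendrocytes, 392 oligodendrocyte precursors, 101 committed precursors, 181 microglia, 150 mural cells (pericytes and smooth muscle cells around vessels) and 116 endothelial cells. Between 20 and 26 barcode sequences were shared by any pair of barcode sets and 0 by all 3. Median UMIs per nucleus ran from 1106 in microglia to 7960 in excitatory neurons. Neuronal RNA was present in every other class: the summed level of 3 neuronal markers was 1004 to 1750 CPM in glial and vascular classes, against 4635 CPM in excitatory and 4753 CPM in inhibitory neurons. Its part in low member levels outside neurons was not tested.

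Levels are given as CPM, the UMIs of a gene per 1000000 UMIs of a class, with exact 95% Poisson intervals that cover counting error only. Since 3′ counting does not rank genes by abundance, levels are compared between classes and not between genes. Each class was set against the average CPM of the remaining 9; a gene counted as measured when 1 side held at least 50 UMIs and the higher level would have given at least 10 UMIs on each side. A measured gene was called higher or lower at a 2-fold difference. Of the 73 members, 68 were measured in at least 1 comparison. The other 5 were COL1A1, COL3A1, COL6A5, COL8A2 and COL17A1, with 24, 57, 57, 7 and 10 UMIs in all nuclei. A gene low on both sides could not be measured, so the counts below describe the measured members and not all 73. In a class with few UMIs, a gene low elsewhere could be measured only if it was high in that class. The shares over all genes were taken under the same filter.

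Mural cells held the highest level of 25 of the 73 members, more than any other class, followed by ependymal cells with 10. Endothelial cells and astrocytes held the highest level of 7 each, microglia of 6, committed precursors of 2, and precursors, oligodendrocytes, excitatory neurons and inhibitory neurons of 4 each. In mural cells 27 of 40 measured members were higher than in the other classes and 5 were lower, where 13.5% of all measured genes kept out of clustering were higher and 17.4% lower. The median log2 fold was 1.66 over the measured members and 0.08 over all measured genes. In endothelial cells 12 of 27 measured members were higher and 10 lower, where 16.8% of all measured genes were higher and 19.6% lower. The 5 members lower in mural cells were ITGA2, ITGB4, ITGA6, LAMA3 and ITGB8, with log2 folds of -3.55, -3.39, -2.35, -2.10 and -1.66; against the median of the other classes 1 was left, and ITGA2 turned to 0.12. The endothelial members furthest below were LAMA2, COL5A2 and COL5A1 at -2.94, -2.74 and -2.51, and LAMA2 turned to 2.44 against the median. COL5A1 fell within 2-fold with presumed doublets kept (-0.35) and with nuclei thinned to 1000 UMIs (-0.67), as did COL5A2 against a pooled reference (-0.74). Leaving out each barcode set in turn gave 18 to 23 higher members in mural and 9 to 12 in endothelial cells. Both vascular classes had shares of higher members above the share over all genes, and in mural cells the share of lower members was below it.

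**Figure D1:**
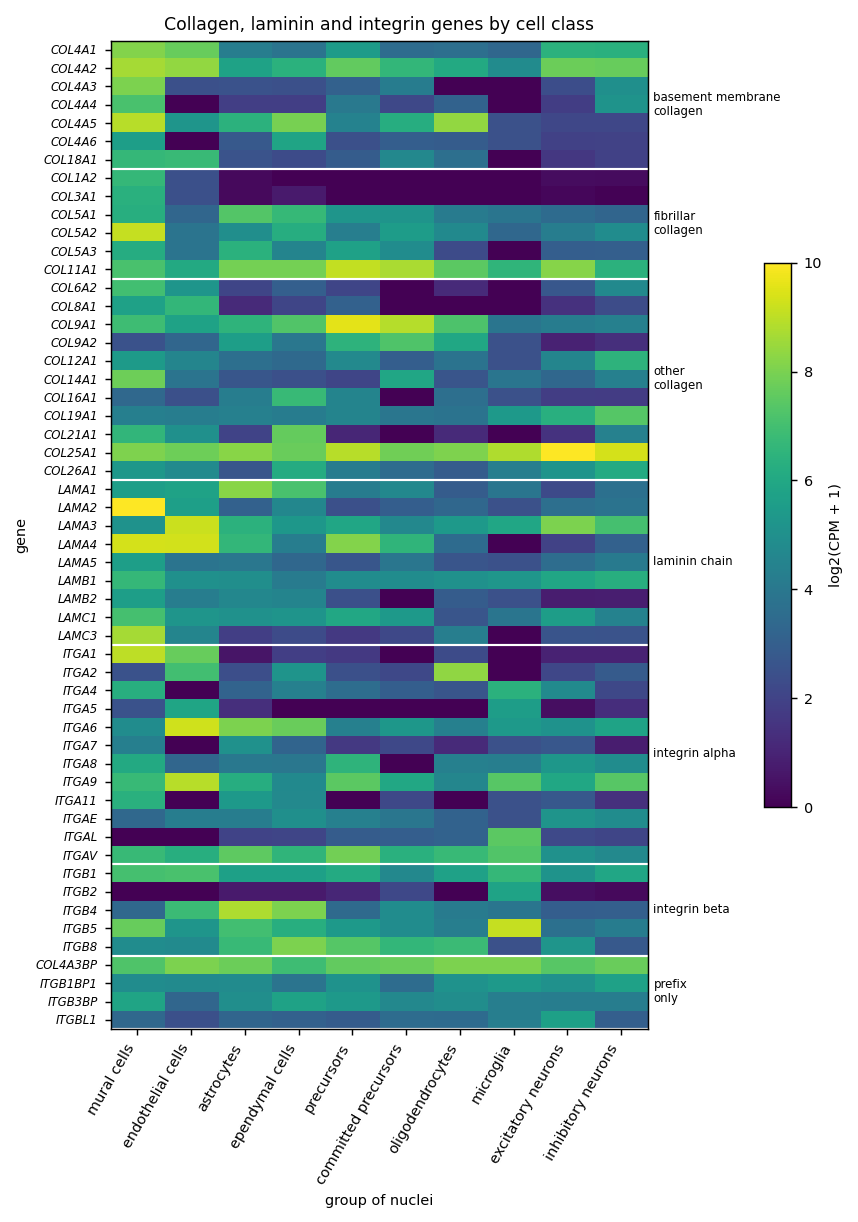
Levels of the 54 members that reached at least 30 CPM with at least 10 UMIs in 1 class, as log2(CPM + 1), with genes down the page by role and the 10 cell classes across. The mural column is bright in the basement membrane collagen and laminin rows (LAMA2 3334 CPM), ITGB5 and ITGAL stand out in microglia, and COL25A1 is brightest in excitatory neurons.

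In the remaining class comparisons higher members were closer to the share over all genes. Astrocytes had 10 of 65 measured members higher and 30 lower, where 8.28% of all measured genes were higher and 17.3% lower. Ependymal cells had 10 of 57 higher and 25 lower (all genes, 12.8% and 18.7%), and microglia 4 of 27 higher and 18 lower (all genes, 18.0% and 17.8%), with 2 higher when barcode set 2 was left out. Many of these lower calls follow from a mean that 1 very high class sets, such as mural LAMA2: against the median of the other classes in place of their mean, lower members numbered 5 in astrocytes, 7 in ependymal cells, 6 in microglia and 4 in endothelial cells. Oligodendrocytes against their precursors had 2 of 16 measured members higher and 8 lower (all genes, 14.3% and 18.0%). Excitatory against inhibitory neurons had 10 of 64 higher and 12 lower (all genes, 8.5% and 8.68%).

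**Figure D2:**
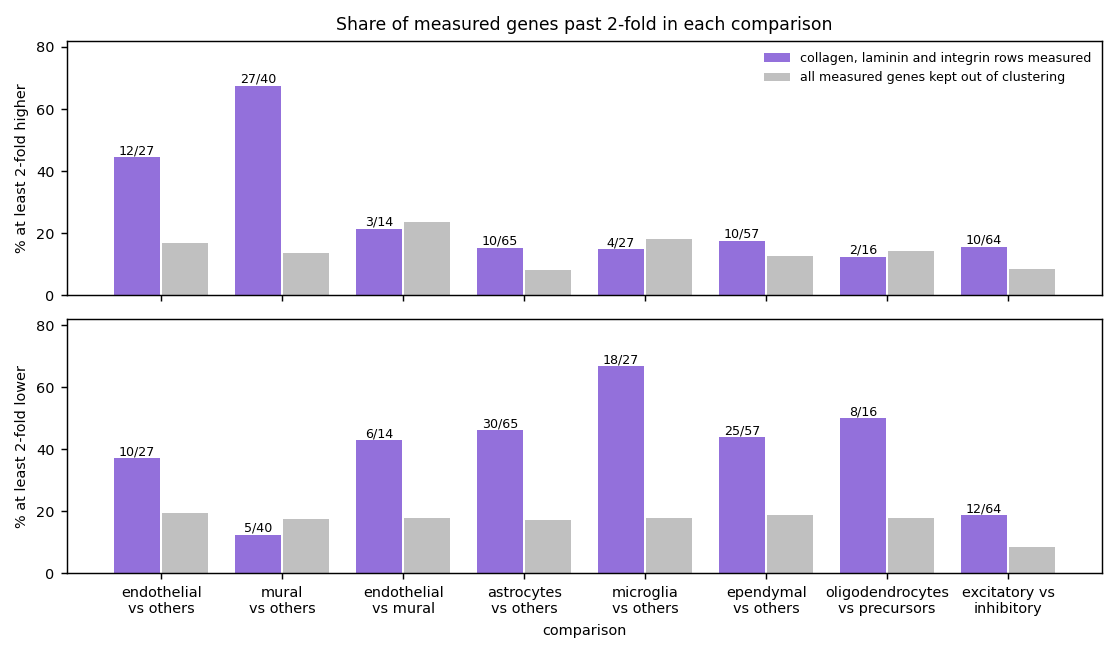
Percent of measured genes at least 2-fold higher (top) or lower (bottom) in each class comparison, for the members in purple and for all measured genes kept out of clustering in grey, with member counts above the bars. The tallest purple bar at the top is mural cells, 27 of 40, and the tallest below is microglia, 18 of 27.

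Among the basement membrane collagens all 7 were measured in mural cells and all 7 were higher there. Members low in the other classes, such as COL4A3 and COL4A4, could pass the filter only through a high mural level. For them the direction was fixed by the filter, so the count is no separate result. COL4A1 and COL4A2 encode the 2 chains of the collagen IV found in nearly every basement membrane. COL4A1 had 169, 193 and 265 CPM in the barcode sets of endothelial cells and 382, 242 and 234 CPM in those of mural cells, against 16.7 to 22.2 CPM in astrocytes. The vascular sets overlapped each other and all lay above the astrocyte sets. COL4A1 was 206 CPM (95% interval 151 to 275; 46 UMIs) in endothelial cells, a log2 fold of 1.74 over the other classes, and 285 CPM (217 to 367; 60 UMIs) in mural cells, a log2 fold of 2.42. COL4A2 was 332 CPM in endothelial and 399 CPM in mural cells, with log2 folds of 1.16 and 1.5. Neurons held COL4A2 as well, at 212 CPM in excitatory and 206 CPM in inhibitory neurons, as did precursors at 191 CPM. Microglia had the lowest level of both chains, 9.17 CPM of COL4A1 from 2 UMIs and 27.5 CPM of COL4A2 from 6 UMIs.

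COL4A3 and COL4A4 encode chains best known from the kidney filter. COL4A3 stood at 0, 13.8 and 0 CPM, from 1 UMI, in the barcode sets of endothelial cells and at 279, 291 and 200 CPM in those of mural cells. Every endothelial set was below every mural set. The mural level was 261 CPM (197 to 340) against a mean of 8.22 CPM in the other classes, a log2 fold of 4.99 with a counting error of 0.27. COL4A4 was 138 CPM in mural cells against 7.63 CPM, a log2 fold of 4.17. Outside mural cells the pair was highest in inhibitory neurons, where COL4A3 was 30.9 CPM and COL4A4 34.4 CPM.

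COL4A5, whose chain joins either of the other collagen IV networks, had 36.3, 55.0 and 14.7 CPM in endothelial sets and 426, 569 and 434 CPM in mural sets. It was 484 CPM (395 to 588) in mural cells, and the next levels were 330 CPM in oligodendrocytes, 247 CPM in ependymal cells and 83.9 CPM in astrocytes. Neurons held 3.34 CPM in both classes. COL4A6, its partner in smooth muscle basement membranes, was highest in ependymal cells at 56.6 CPM (45.4 to 69.7) and next in mural cells at 47.5 CPM (22.8 to 87.3), intervals that overlapped. COL18A1, the source of the fragment endostatin, was 108 CPM in endothelial and 99.7 CPM in mural cells, also with overlapping intervals, and at most 24.5 CPM in any other class.

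The collagen IV chains lie in neighbouring pairs, and the levels of COL4A1 with COL4A2 and of COL4A3 with COL4A4 moved together across groups of nuclei. In the rhesus assembly T2T-MMU8v2.0, whose gene order was used for neighbours only, no protein-coding gene lies between COL4A1 and COL4A2 or between COL4A3 and COL4A4, and 1 lies between COL4A5 and COL4A6. Over 31 groups (8 non-neuronal classes and 23 neuronal sub-clusters) the Pearson correlation of log2 levels was 0.93 for COL4A1 with COL4A2, 0.93 for COL4A3 with COL4A4 and 0.72 for COL4A5 with COL4A6. Over the 23 neuronal sub-clusters alone it was 0.96, 0.98 and 0.20. The COL4A5 with COL4A6 value thus rested on the non-neuronal classes; both genes were low in neurons. All groups come from the same pool and share its libraries, so these values describe the pool. LAMB1 and LAMC1, which join in most laminin trimers but lie apart, had 0.03 over the 31 groups, and COL6A2 with COL6A3 had -0.14. Higher values came from COL9A1 with COL9A2 (0.88), ITGA6 with ITGB4 (0.61), ITGAV with ITGB8 (0.45) and LAMA3 with LAMB3 (0.23). Over the neuronal sub-clusters alone these pairs had 0.03, -0.0007, 0.01 and -0.23. Over the 10 named classes COL1A1 with COL1A2 had 0.98 and ITGAL with ITGB2 had 0.96. Both values were above those of COL4A1 with COL4A2 (0.92) and COL4A3 with COL4A4 (0.88) over the same classes. COL1A1 and ITGB2 had few UMIs in most classes. Whether lying side by side has a part in the collagen IV values was not tested. Other side-by-side pairs had lower values than COL4A1 with COL4A2 and COL4A3 with COL4A4: 0.59 for COL3A1 with COL5A2 (-0.02 over neuronal sub-clusters), 0.35 for COL6A5 with COL6A6, 0.25 for LAMB1 with LAMB4 and 0.19 for COL6A1 with COL6A2. Of these COL3A1, COL6A1, COL6A5 and COL6A6 had few UMIs in most groups.

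**Figure D3:**
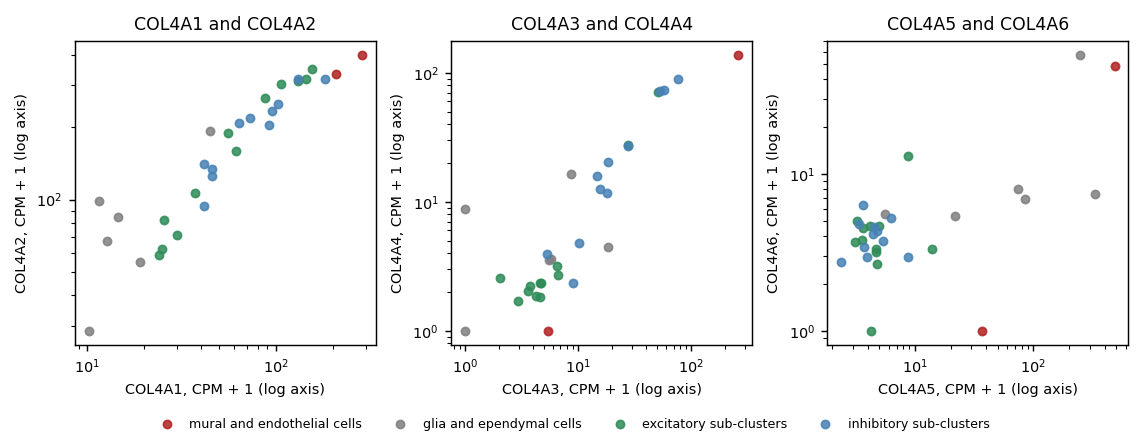
Each point is 1 class or neuronal sub-cluster, with the level of 1 collagen IV chain across and of its neighbour up, as CPM + 1 on log axes. Points of COL4A1 with COL4A2 and of COL4A3 with COL4A4 lie along a rising line (Pearson 0.93 each over 31 groups), while those of COL4A5 with COL4A6 bunch at low levels in neurons.

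Among the laminin alpha chains LAMA2, whose loss causes a congenital muscular dystrophy, set mural cells apart from every other class. It stood at 3553, 3441 and 2938 CPM in the barcode sets of mural cells. The mean of the other classes was 14.5 CPM, and no other class exceeded 49.3 CPM. The mural level was 3334 CPM (3092 to 3590; 702 UMIs), a log2 fold of 7.85 with a counting error of 0.20. A LAMA2 UMI was seen in 75.3% of mural nuclei, at a median of 1366 UMIs, and in 0.552% of microglial nuclei, at a median of 1106 UMIs. The endothelial level of 49.3 CPM came from 11 UMIs, with 1, 10 and 0 in the barcode sets, so 1 set decided it.

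LAMA4, the chain of endothelial basement membranes, was shared by both vascular classes. It had 738, 564 and 575 CPM in endothelial sets and 690, 642 and 634 CPM in mural sets, which overlapped. The log2 folds over the other classes were 2.29 in endothelial and 2.37 in mural cells. Precursors followed at 282 CPM (249 to 319) and astrocytes at 98.6 CPM, and microglia had 0 UMIs. Set to a floor of 3 UMIs over the class, 13.8 CPM, microglia were 14.5-fold lower than the mean of the other classes. That fold depends on the floor and is no lower bound.

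LAMA3, known from skin basement membranes, was high in endothelial cells and low in mural cells. Endothelial sets held 508, 619 and 634 CPM, against 29.4, 48.5 and 16.7 CPM in mural sets, with no overlap. The endothelial level was 582 CPM (487 to 692) against 33.2 CPM (13.4 to 68.5) in mural cells, a log2 fold of 4.13. Excitatory neurons came next at 261 CPM and inhibitory neurons at 133 CPM. LAMA1, a chain of embryonic and pial basement membranes, was highest in astrocytes, at 280, 298 and 305 CPM in the barcode sets and 294 CPM (284 to 305) in all, a log2 fold of 3.06. Ependymal cells followed at 138 CPM (120 to 158), neurons stood at 3.73 and 11.8 CPM, and LAMA5 reached 47.5 CPM in mural cells, a log2 fold of 2.20 from 10 UMIs.

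Of the beta and gamma chains LAMC3 stood out. It had 12.1, 55.0 and 0 CPM in endothelial sets and 470, 400 and 334 CPM in mural sets, with no overlap. The mural level of 404 CPM (322 to 499) was a log2 fold of 5.86 over the other classes. The common chains differed less: mural log2 folds were 2.02 for LAMC1 at 133 CPM, 1.40 for LAMB1 at 99.7 CPM and 2.40 for LAMB2 at 47.5 CPM. LAMB4, a chain of poorly known role, was highest in astrocytes at 24.7 CPM. LAMB3, a beta chain best known from epithelial basement membranes, had at most 6.32 CPM in any class, and 4.48 CPM in endothelial cells from 1 UMI.

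**Figure D4:**
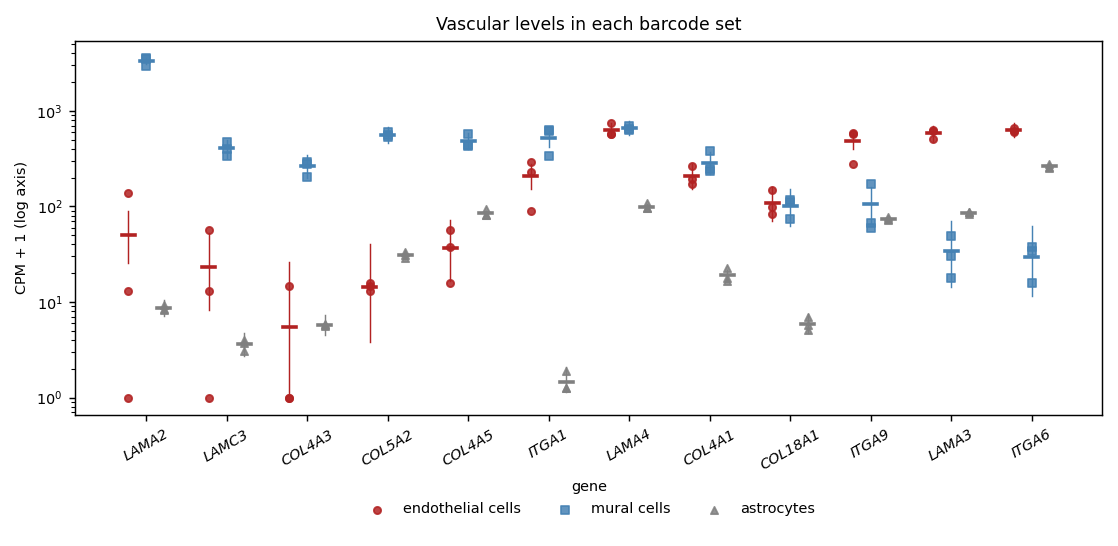
Levels of 12 members in endothelial cells (red circles), mural cells (blue squares) and astrocytes (grey triangles), as CPM + 1 on a log axis; each point is 1 barcode set, the short bar is the level over all sets and the thin line its 95% Poisson interval. LAMA2, LAMC3, COL4A3, COL5A2 and COL4A5 lie higher in mural cells, ITGA6 and LAMA3 in endothelial cells, and LAMA4, COL4A1 and COL18A1 overlap.

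The direct comparison of endothelial with mural cells had 14 measured members, of which 3 were higher in endothelial cells and 6 lower (all measured genes, 23.7% and 17.8%). The higher members were the receptor subunits ITGA6 and ITGA9 and the laminin chain LAMA3, with log2 folds of 4.46, 2.20 and 4.13. The lower ones were LAMA2 at -6.08, COL4A3 at -5.87, COL5A2 at -5.38, LAMC3 at -4.17, COL4A5 at -3.76 and ITGA1 at -1.32. The COL4A3 value rested on 1 endothelial UMI, and ITGA1 fell within 2-fold (-0.85) without barcode set 3.

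Of the 9 fibrillar collagens 4 had their highest level among the named classes in mural cells: COL1A1, COL1A2, COL3A1 and COL5A2. COL5A2, a chain that regulates fibril width, had 12.1, 13.8 and 14.7 CPM in endothelial sets against 558, 533 and 601 CPM in mural sets. Its mural level of 560 CPM (464 to 671) was a log2 fold of 4.26 over the other classes. COL1A2 had 99.7 CPM in mural cells from 21 UMIs and COL3A1 80.7 CPM from 17 UMIs; in every other class both were at or below 4.48 CPM. COL1A1, the partner of COL1A2 in collagen I, had 4 mural UMIs. Much of their signal lay outside the named classes: of 128 COL1A2 UMIs 54 were in named classes, 29 in unnamed nuclei and 45 in presumed doublets. An unnamed cluster of 17 nuclei, left out for its doublet score, had COL1A2 at 282 CPM from 18 UMIs, COL3A1 at 141 CPM from 9 UMIs and fibroblast markers at 564 CPM. The collagen V chains COL5A1 and COL5A3 were highest in astrocytes, at 161 and 82.5 CPM, with log2 folds of 2.23 and 1.86. COL11A1, a minor fibril chain of cartilage, was widespread: 544 CPM (498 to 594) in precursors, 424 CPM (352 to 507) in committed precursors, 290 CPM in excitatory neurons and 238 CPM in astrocytes and in ependymal cells. COL2A1 and COL11A2, further cartilage chains, stayed at or below 10.5 and 19.4 CPM, from 3 and 15 UMIs in the highest class.

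Fibroblast markers moved with the mural class. The summed level of 7 listed fibroblast markers was 299 CPM in mural cells against 21.0 to 143 CPM elsewhere, 6 of the 7 had a UMI there, and 48 of 150 mural nuclei held such a UMI. Without those 48 nuclei the mural level of LAMA2 was 3121 CPM, of COL4A3 209 CPM, of LAMC3 360 CPM, of COL1A2 115 CPM and of COL3A1 64.9 CPM. In the 48 nuclei it was 3744, 362, 487, 69.6 and 111 CPM. The number of members higher in mural cells was 22 without these nuclei and 27 with them. Mural cells also split into 42 nuclei with more of the smooth muscle marker ACTA2 (ACTA2-high) and 108 with less. The 108 are labelled PDGFRB-high after a pericyte marker, but the label rests on their lower ACTA2 and not on a PDGFRB level. Of 7 members measured between them 4 were lower in the ACTA2-high nuclei and 0 higher (all measured genes, 21.1% and 8.2%). LAMA2 was 685 CPM in ACTA2-high against 4536 CPM in PDGFRB-high nuclei, LAMC3 152 against 518 CPM and LAMA4 335 against 801 CPM. COL4A3 had 0 UMIs in ACTA2-high against 380 CPM in PDGFRB-high nuclei, 8.32-fold lower at the same floor of 3 UMIs. This fold, too, depends on the floor and is no lower bound. COL4A2 ran the other way at 715 CPM in ACTA2-high against 255 CPM in PDGFRB-high nuclei, as did ITGA8 at 198 against 6.90 CPM, but both missed the filter. The 42 ACTA2-high nuclei fell 11, 12 and 19 to the barcode sets.

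Among the other collagens each of several classes had its own. COL14A1, which binds fibril surfaces, had 220, 145 and 334 CPM in mural sets and 223 CPM in all, a log2 fold of 3.91. COL6A2, a chain of the beaded filaments around cells, was 123 CPM in mural cells, a log2 fold of 3.76. COL8A1, a network collagen of vessels, was highest in endothelial cells at 98.6 CPM (61.8 to 149; 22 UMIs), with mural cells at 52.2 CPM and no other class above 7.65 CPM. Ependymal cells had the highest COL16A1, at 99.4, 111 and 104 CPM in the barcode sets, and the highest COL21A1, at 167, 197 and 235 CPM. Both bind to fibrils, and their ependymal log2 folds were 3.65 and 3.53; mural cells came next for COL21A1 at 95 CPM.

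COL9A1 and COL9A2, chains of a cartilage collagen, were highest in the oligodendrocyte lineage. COL9A1 had 786, 683 and 868 CPM in precursor sets, and was 470 CPM in committed precursors and 148 CPM in oligodendrocytes. No set of mature cells (113, 186 and 141 CPM) reached a set of precursors. COL9A2 was highest in committed precursors at 151 CPM, against 87.5 CPM in precursors and 60.9 CPM in oligodendrocytes. COL25A1, a transmembrane collagen of neurons, was 1264 CPM in excitatory and 656 CPM in inhibitory neurons. In the other classes it was 16.3% to 38.8% of the excitatory level, where the neuronal marker SYT1 was at 24.4% to 44.9% and RBFOX3 at 2.84% to 8.78%. COL12A1, COL19A1 and COL26A1 were highest or next to highest in inhibitory neurons, at 88.4, 163 and 67.4 CPM. COL6A3, COL6A6 and COL28A1 were at or below 5.47 CPM in every class.

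Among the integrin alpha subunits ITGA6 and ITGA9 were higher and ITGA1 lower in endothelial than in mural cells. ITGA1, a collagen and laminin receptor subunit, had 230, 289 and 88.4 CPM in endothelial sets and 617, 339 and 634 CPM in mural sets, and at most 3.89 CPM in any other class. The endothelial and mural sets did not overlap, and the mural level of 513 CPM was a log2 fold of 4.41 over the other classes. ITGA6, a laminin receptor subunit, had 617, 605 and 663 CPM in endothelial sets, against 14.7, 36.3 and 33.4 CPM in mural sets. Its endothelial log2 fold over the other classes was 3.00, and astrocytes with 262 CPM and ependymal cells with 208 CPM came next. ITGA9, a receptor subunit for matrix and adhesion proteins, was 479 CPM in endothelial cells but spread over 569, 275 and 590 CPM between the barcode sets. ITGA5, the fibronectin receptor subunit, was 58.2 CPM in endothelial cells and 45.9 CPM in microglia, from 13 and 10 UMIs. ITGA11, a collagen receptor subunit, was 80.7 CPM in mural cells (log2 fold 3.16) and 40.8 CPM in astrocytes.

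ITGA2, a collagen receptor subunit known from platelets, was highest in oligodendrocytes. It had 313, 293 and 345 CPM in oligodendrocyte sets against 9, 3.25 and 0 CPM in precursor sets. The level was 319 CPM (280 to 361; 246 UMIs) in oligodendrocytes against 4.37 CPM (1.19 to 11.2; 4 UMIs) in precursors, a log2 fold of 6.19 with a counting error of 0.73. Endothelial cells came next at 125 CPM. COL4A5 was the other member higher in oligodendrocytes, 330 CPM against 20.8 CPM in precursors, a log2 fold of 3.99. Lower in oligodendrocytes were LAMA4 at 10.4 against 282 CPM, LAMC1 at 5.18 against 62.3 CPM, ITGA9 at 23.3 against 178 CPM, COL9A1 at 148 against 776 CPM and ITGA8 at 19.4 against 88.6 CPM. COL11A1, COL4A2 and ITGAV were also lower, with log2 folds of -1.61, -1.53 and -1.14; ITGAV fell within 2-fold without barcode set 3 (-0.96) and when clusters with high doublet scores were named (-0.79).

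Microglia had few members but 2 with levels far above the rest. ITGAL, a leukocyte subunit, had 204, 257 and 80.7 CPM in microglial sets and was 179 CPM (127 to 245) in all, against a mean of 3.84 CPM elsewhere, a log2 fold of 5.54. ITGB5, which pairs with the ITGAV subunit to bind vitronectin, had 611, 443 and 619 CPM and a log2 fold of 3.18. ITGB2, the beta partner of ITGAL, had 12 UMIs in microglia (55.0 CPM, 28.4 to 96.1) and at most 3.50 CPM elsewhere. ITGA4 was called higher at 82.6 CPM, but its sets gave 13.6, 186 and 53.8 CPM and the direction turned in 1 of them. ITGAD had 7 microglial UMIs and lies in a family of close copies, so its reads may be split with others. ITGA1, ITGA2 and LAMC3 had 0 microglial UMIs.

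Astrocytes and ependymal cells shared ITGB4, the beta partner of ITGA6 in laminin-anchoring junctions of skin. It had 428, 436 and 451 CPM in astrocyte sets and 267, 251 and 266 CPM in ependymal sets, with 112 CPM in endothelial cells and at most 28.0 CPM in other classes. The log2 folds were 3.08 in astrocytes and 1.87 in ependymal cells. ITGB8, which with ITGAV activates TGF-beta, was highest in ependymal cells at 258 CPM (233 to 284), a log2 fold of 1.99. Precursors at 163 CPM and oligodendrocytes at 113 CPM followed. ITGAV itself was highest in precursors at 234 CPM and in astrocytes at 182 CPM. ITGA7, a muscle laminin receptor subunit, was highest in astrocytes at 32.5 CPM (log2 fold 2.69), and ITGA2B, the platelet subunit, in ependymal cells at 22.5 CPM (2.48) with astrocytes at 16.1 CPM (1.76).

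ITGB1, the common partner of most alpha subunits here, was 139 CPM in endothelial and 133 CPM in mural cells, with 24.5 to 101 CPM elsewhere. Its log2 folds were 1.13 and 1.05. ITGB6 and ITGB7 were at or below 5.18 CPM in every class, ITGA3 and ITGA10 at or below 33.2 CPM, and ITGAE at or below 35.3 CPM. Among the rows caught by prefix, COL4A3BP (a ceramide transfer protein) stood between 118 and 261 CPM in all classes. ITGBL1, a secreted integrin-like protein, was highest in excitatory neurons at 51.0 CPM, and ITGB1BP1, ITGB1BP2 and ITGB3BP stayed at or below 57.0 CPM.

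Astrocytes formed 4 clusters that differed in GFAP, the intermediate filament raised in reactive and fibrous astrocytes: 1470 CPM in the highest (574 nuclei) and 163 CPM in the lowest (344 nuclei). Of 18 members measured between these, 2 were higher and 1 lower in the GFAP-highest cluster (all measured genes, 3.57% and 3.06%). ITGB4 was 910 CPM there against 237 CPM in the lowest, a log2 fold of 1.94, and the other 2 clusters stood at 453 and 339 CPM. ITGA6 was 377 CPM against 124 CPM, a log2 fold of 1.61. COL25A1 was lower, and not called without barcode set 3, 260 against 640 CPM, and the neuronal marker RBFOX3 moved with it, 52.8 CPM in the GFAP-highest against 135 CPM in the GFAP-lowest cluster; its part in that value was not tested. Against the mean of the other 3 clusters ITGB4 was the 1 member higher, with 910 against 343 CPM, and LAMB4 and ITGA11 were lower (1 of 39 and 2 of 39 measured; all genes, 2.03% and 2.17%).

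Of the 10 members higher in excitatory than in inhibitory neurons 5 were integrin subunits, 3 collagens, 1 a laminin chain and 1 ITGBL1, which is no integrin. ITGA4 had 26.9, 26.3 and 26.6 CPM in excitatory sets against 2.68, 3.81 and 4.07 CPM in inhibitory sets, a log2 fold of 2.93. ITGB8 was 36.4 CPM in excitatory against 5.88 CPM in inhibitory neurons (2.63), ITGA7 5.55 against 0.765 CPM (2.86) and ITGBL1 51.0 against 7.13 CPM (2.84). COL6A3 had a log2 fold of 2.05 at 1.66 against 0.403 CPM, which fell within 2-fold (0.50) with nuclei thinned to 1000 UMIs. ITGA11 was 5.77 against 1.61 CPM (1.84) and COL11A1 290 against 84.6 CPM (1.78). Of the 12 lower members 9 were collagens. COL4A4 had 1.60, 3.03 and 2.90 CPM in excitatory sets against 38.5, 27.7 and 37.2 CPM in inhibitory sets, a log2 fold of -3.78. COL2A1, COL21A1, COL4A3 and COL6A2 had log2 folds of -3.71, -3.54, -2.89 and -2.22, and COL12A1 was 22.4 CPM in excitatory against 88.4 CPM in inhibitory neurons, a log2 fold of -1.98. Within each class the sets spanned far less than the gap between classes for ITGA4, COL4A4 and COL12A1.

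Neurons were divided further into 12 excitatory sub-clusters (E1 to E12) and 11 inhibitory ones (I1 to I11), each compared with the mean of the others of its class; an excitatory sub-cluster of 23 nuclei was left out. Of 62 measured members 40 were higher in at least 1 excitatory sub-cluster and 38 lower in at least 1 (all measured genes, 26.3% and 34.2%). Of 53 measured in inhibitory sub-clusters, 28 were higher and 34 lower in at least 1 (all measured genes, 19.3% and 26.3%). Sub-clusters were described by marker genes that were open to the clustering, for example SST and NPY in I9 or TLE4 and FOXP2 in E11. These markers are therefore no independent support for the sub-clusters.

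**Figure D5:**
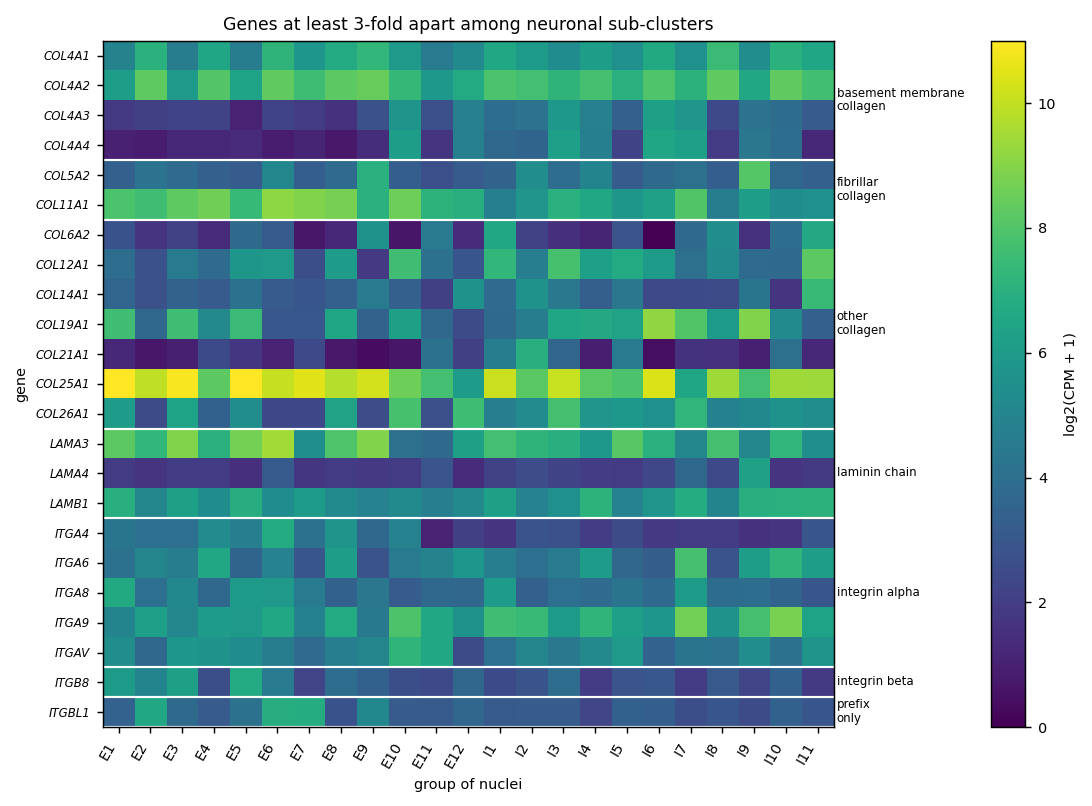
Levels, as log2(CPM + 1), of the 23 members that lay at least 3-fold from the other sub-clusters somewhere and reached 50 CPM, across 12 excitatory (E) and 11 inhibitory (I) sub-clusters. COL25A1 is bright almost throughout but dim in E12 and I7, LAMA3 is dim in E10 and E11, and COL5A2 and LAMA4 stand out in I9.

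Among basement membrane collagens COL4A4 and COL4A3 were high in the same sub-clusters. E10, marked by GPC5 and LAMP5, had COL4A4 at 36.5, 82.6 and 76.7 CPM in its barcode sets and 69.5 CPM in all, against a mean of 3.57 CPM in the other excitatory sub-clusters, 19.5-fold higher. COL4A3 was 50.2 CPM in E10. Among inhibitory sub-clusters COL4A4 was highest in I6, which also had the most GPC5, at 88.4 CPM, and 1.33 CPM in I11; COL4A3 was 75 CPM in I6. COL4A1 ranged from 23.0 CPM in E11 to 155 CPM in E9, and COL4A2 from 58.1 to 349 CPM in the same sub-clusters.

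COL5A2 peaked in 1 excitatory and 1 inhibitory sub-cluster. It was 126 CPM (115 to 138) in E9, the sub-cluster with the most CARTPT, 10.3-fold above the other excitatory ones, and in I9 it had 334, 305 and 191 CPM and 270 CPM in all, 16.5-fold above the other inhibitory ones. I9 also had the laminin chain LAMA4, at 88.4, 44.1 and 90.5 CPM and 77.6 CPM (61.5 to 96.5) in all, 17.9-fold higher than the others. The next inhibitory level of LAMA4 was 12.1 CPM in I7. COL2A1 was 18.9 CPM in I4, 26.6-fold higher from 62 UMIs, and next 5.32 CPM in I11. COL21A1 was 120 CPM (107 to 135) in I2, which shared with I10 the highest RELN, 14.9-fold higher than the other inhibitory sub-clusters; I6 had 0.312 CPM.

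COL25A1, COL19A1, COL26A1 and COL12A1 ranged widely among neurons. COL25A1 was 2462 CPM in E5, a sub-cluster high in PROX1, and 64.4 CPM (45.8 to 88.0) in E12, which had the most HTR1F and TSHZ2, 18.1-fold below the other excitatory sub-clusters. In I7 it was 86.2 CPM, 7.62-fold below the other inhibitory ones. COL19A1 was 580 CPM in I6 and 9.31 CPM (3.74 to 19.2) in I11, and 199 CPM in E3 against 4.95 CPM in E12. COL26A1 was 214 CPM in I3, the sub-cluster with the most PENK, 4.14-fold above the other inhibitory ones, and 4.16 CPM in both E6 and E7. COL12A1 was 303 CPM in I11 and 2.56 CPM in E9. COL6A2 was 93.4 CPM in I1, 5.07-fold above the others, 99.8 CPM in I11 and without a UMI in I6.

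The laminin chain LAMA3 divided the excitatory sub-clusters. It was 668, 667 and 792 CPM in the barcode sets of E6, the sub-cluster with the most OPRM1 and ST18. In E10 it was 15.8 CPM (10.4 to 22.9) and in E11 13.2 CPM (6.80 to 23.0), 17.6-fold and 21.1-fold below the other excitatory sub-clusters. E6 also had the highest ITGA4, at 107 CPM (98.5 to 115), while E11 had 1.10 CPM (0.0277 to 6.11) from 1 UMI. ITGA7 was 25.2 CPM in E3, high in PROX1, 8.10-fold above the others. ITGA9 was highest in I10 at 442 CPM and I7 at 399 CPM, and ITGA6 in I7 at 215 CPM; these ITGA9 and ITGA6 values were chosen after they were seen.

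Partner genes of the members were followed in 5 lists. For their counts, the shares of all measured genes that were higher and lower were 13.5% and 17.4% in mural cells, 16.8% and 19.6% in endothelial cells and 18.0% and 17.8% in microglia. Of 16 measured basement membrane partners 10 were higher and 3 lower in mural cells, with a median log2 fold of 1.83 against 0.08 over all measured genes. FREM1 was 1202 CPM in mural cells (log2 fold 3.62), EGFLAM 171 CPM (4.12) and the heparan sulfate proteoglycan AGRN 57.0 CPM (3.84), while SMOC1 was lower at 9.50 CPM (-4.34). In endothelial cells 6 of 16 were higher and 5 lower, with the elastic fibre protein FBLN5 at 533 CPM (6.26) and HMCN1 at 636 CPM (5.11). In microglia none of 12 was higher and all 12 were lower.

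Other receptors of collagen and laminin had 5 of 17 higher and 3 lower in mural cells, led by the collagen receptor DDR2 at 199 CPM (log2 fold 5.02) and the laminin receptor BCAM at 342 CPM (4.01). In endothelial cells 3 of 19 were higher, near the 16.8% over all measured genes, and 8 lower (19.6%), and the leading gene was ADGRG6, an adhesion receptor that binds collagen IV, at 336 CPM (5.15). Microglia had 3 of 20 higher and 9 lower (all genes, 18.0% and 17.8%), with the collagen-binding inhibitory receptor LAIR1 at 353 CPM (5.43). Integrin adaptors had 8 of 19 higher and 5 lower in mural cells, with VCL at 589 CPM (2.67). In microglia 5 of 20 were higher and 10 lower, with the leukocyte kindlin FERMT3 at 55.0 CPM (4.66) and the integrin ligand TGFB1 at 706 CPM (4.51).

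Collagen maturation genes had 2 of 6 measured higher and 1 lower in mural cells, including the collagen chaperone SERPINH1 at 47.5 CPM (log2 fold 2.74), and 4 of 24 higher and 3 lower in excitatory against inhibitory neurons (all genes, 8.5% and 8.68%), with PCOLCE2 at 72.4 against 5.72 CPM (3.66). Matrix breakdown genes had 1 of 4 higher and 1 lower in mural cells, and 1 of 19 higher and 6 lower in excitatory neurons, where the protease ADAMTS9 was 1.31 CPM against 47.7 CPM in inhibitory neurons (-5.19). Integrin adaptors had 3 of 26 higher and 2 lower in excitatory neurons, near those shares over all genes, with the kinase PTK2B at 397 against 30.9 CPM (3.68).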

How the data were processed

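Nuclei were isolated from frozen amygdala and sequenced as droplet 3′ libraries, per the labels' protocols. In the table as deposited, each value is a raw count of UMIs for 1 gene in 1 nucleus, and the authors pooled all samples into it. fastp, Cell Ranger 3.0.0 and the build GRCh38, a human one, are named in the submitters' processing notes. The deposited table, however, holds 5142 rows under macaque Ensembl identifiers, and the build that was used could not be settled. How strand and multi-mapped reads were treated is not given in the sources used here. The members, lists and tests were chosen with earlier results of these data known.

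Presumed doublets were removed per barcode set at 0.8% per 1000 nuclei, using a Scrublet-type score of simulated pairs. Nuclei were clustered with scanpy 1.11.5 (2000 variable genes, 30 components, 15 neighbours, Leiden resolution 0.5) on genes outside every member and list, and other clusters were re-clustered. Nuclei held at least 390 detected genes, so the minimum of 200 removed none. The naming thresholds were set after the data were seen: GAD1 plus GAD2 above 300 CPM for inhibitory neurons; SLC17A7 above 75, SV2B above 45 and RBFOX3 above 600 CPM for excitatory neurons; a mean log2 marker ratio above 1.5 with a lead above 1 elsewhere; BCAS1 above 2000 CPM for committed precursors. Clusters with a median doublet score above 0.07 stayed unnamed.

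Counts were summed per class and divided by the class total. Folds compare a class with the mean CPM of the others, with a floor of 3 UMIs where a side had none. Against the median, both sides were raised to at least 3 UMIs over the middle-sized class. Genes under that floor on both sides then gave no fold. The steps were tested on simulated data. Named members are up to 10 per class comparison and 3 per neuronal sub-cluster with the largest folds in the same direction in every barcode set, with their partner chains; up to 4 genes per list. Members outside the rule are given to account for every role and were chosen after their values were seen. The values of 1 member are not reported here. A gene table held symbols for 851 of 5142 Ensembl-identified rows. Such a symbol was used only where no deposited row had it and it named a family member, a marker or a list gene. With 1 pooled sample no test between samples could be made; settings that were varied are listed in the closing section.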

Additional observations from a re-analysis of the deposited data

How the results depend on the processing

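Of 832 values of single members recomputed under another setting, 807 stayed past 2-fold in the same direction, 22 fell within 2-fold and 5 reversed, 3 of these past 2-fold and 2 within it. LAMA2 reversed in endothelial cells against a pooled reference (log2 fold 1.55) and against the median of the other classes (2.44), and in ependymal cells against the median (1.39). ITGA2 in mural cells reversed against the median (0.12) and ITGB4 in microglia when clusters with high doublet scores were named (0.28). These 2 references are not pulled up by 1 very high class; the cause of the ITGB4 change was not tested. Other lower calls that fell within 2-fold were ITGA2 in mural cells and COL8A1 and ITGA2 in astrocytes against a pooled reference, and ITGB8 and COL9A1 in microglia when high-doublet clusters were named. Against the median the same held for ITGB4 in mural cells and microglia, LAMA2, LAMC3 and ITGA2 in astrocytes, and LAMC3, COL4A3 and COL18A1 in ependymal cells. The median reference, and leaving out fibroblast-marker or ACTA2-high mural nuclei, were chosen after seeing the data; higher mural members then numbered 22 without the fibroblast-marker nuclei and 19 without the ACTA2-high ones.

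Counts moved by over 1.5 times as follows. Without a low-count filter, higher and lower members numbered 27 and 21 in endothelial cells, 47 and 9 in mural cells, 6 and 28 in endothelial against mural cells, 20 and 31 in microglia, and 5 and 18 in oligodendrocytes; 16 were higher in ependymal cells, 46 in some inhibitory sub-cluster, and 12 lower in the GFAP-highest astrocytes. Against the median, lower members numbered 4 in endothelial, 1 in mural, 5 in astrocytes, 6 in microglia and 7 in ependymal cells, and higher ones 16 in astrocytes and 21 in ependymal cells. A pooled reference gave 3 lower in endothelial cells and 19 higher in astrocytes. With every nucleus thinned to 1000 UMIs, 6 were lower in endothelial cells, 2 higher and 10 lower in microglia, 6 lower in excitatory neurons, 23 higher in some excitatory and 16 lower in some inhibitory sub-cluster, and 0 lower in the GFAP-highest astrocytes. At 3-fold, 6 were higher in ependymal cells, 7 lower in excitatory neurons, 25 higher in some excitatory sub-cluster, 16 higher and 22 lower in some inhibitory one, and 0 lower in the GFAP-highest astrocytes. Keeping presumed doublets left 3 lower in endothelial cells, size factors gave 8 lower in mural cells, and naming high-doublet clusters gave 5 higher in oligodendrocytes. The GFAP comparison against the other astrocyte clusters gave 1 higher and 2 lower. Leaving out each barcode set in turn gave 2 (without set 2) to 3 higher in microglia, 18 to 23 higher in mural cells (27 with all sets), 9 to 12 higher in endothelial cells and 0 (without set 3) to 1 lower in the GFAP-highest astrocytes. Levels in mural, endothelial and microglial nuclei rest on few UMIs, which limits their precision.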

Other observations

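The 9 further family rows, named only through the gene table, gave these levels. COL20A1 had 41.5 CPM in precursors, 27.2 CPM in oligodendrocytes and 17.5 CPM in committed precursors, and COL9A3, a chain that assembles with COL9A1 and COL9A2, had 24.1, 18.1 and 17.5 CPM in the same classes; neither exceeded 5.18 CPM elsewhere. COL15A1, a collagen of vessel basement membranes, was highest in committed precursors at 80.6 CPM from 23 UMIs, and had 1 UMI in mural cells and 0 in endothelial cells. COL13A1, a transmembrane collagen, was 8.79 CPM in excitatory against 1.25 CPM in inhibitory neurons, a log2 fold of 2.82. ITGB3, the platelet beta subunit, had 9 UMIs in microglia (41.3 CPM). COL27A1 was 6.04 CPM in astrocytes, COL22A1 at most 4.75 CPM, COL23A1 at most 8.96 CPM from 2 UMIs, and COL6A1 was at no more than 0.0929 CPM in any of them.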
